A study of Gallus gallus with 9 samples.

Results

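The cytosolic ribosomal protein genes encode the proteins of the ribosomes that work in the cytoplasm. They were chosen by name, as the genes whose symbol starts with RPL or RPS followed by a digit or is *RPLP0*, *RPLP1*, *RPLP2* or *RPSA*, without the ribosomal protein S6 kinases. This gave 71 of 16635 genes, classed by symbol as 38 proteins of the large subunit, 25 of the small subunit and 8 copies and binding proteins. Their RNA was followed in chicken retinal pigment epithelium (RPE), the pigmented layer behind the retina, which in the embryo is able to give rise to a new retina after injury. Embryos were at embryonic day 4, when retinectomy was done, with 3 embryos in each condition and 1 RNA-seq library for each embryo. The rRPE (reprogrammed RPE) was collected 6 h after retinectomy, the surgical removal of the retina, with a bead soaked in the growth factor FGF2 placed in the eye cup, and only RPE close to the bead was captured. The t-rRPE (transiently reprogrammed RPE) was collected 6 h after retinectomy alone. The RPE group was intact, uninjured and described only as embryonic day 4. A difference of hours in age between it and the other conditions cannot be told apart from injury. All embryos were White Leghorn chickens, and in every condition the RPE was cut from frozen sections by laser capture microdissection and its poly(A) RNA was sequenced.

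A ribosome joins a small subunit, which reads the mRNA, to a large subunit, which forms the peptide bond and holds the exit tunnel of the new protein. Nearly all of its proteins are needed in equal numbers around ribosomal RNA, which poly(A) libraries do not aim to measure, and the messages of these proteins share a pyrimidine tract at their start through which growth signals such as mTOR set their translation. The mRNAs are among the most abundant of growing cells, and the tract acts on their translation, which RNA levels do not show.

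The members held a similar part of the RNA in all libraries. They took 6.74%, 6.88% and 6.25% of all normalized counts in rRPE 1, 2 and 3, then 6.82%, 6.95% and 6.35% in t-rRPE 1, 2 and 3, and 7.59%, 6.64% and 6.76% in RPE 1, 2 and 3. The normalized count is the number of reads of a gene divided by the size factor of its library. The share was highest in RPE 1, and the ranges of the conditions overlapped. Libraries held between 26167206 and 45563924 recovered reads, with reads for 13327 to 14077 genes. Of 79 usual names of vertebrate ribosomal proteins, 64 were found, and 11 of the others had no gene under that name or a RefSeq synonym and were not analysed here, among them *RPS27*, *RPS18*, *RPL10* and *RPL41*. *RPSA*, the laminin-binding protein of the small subunit, is listed under the symbol *RPSAP58* and so was not a member. Levels were not compared between genes, because the counts are not divided by transcript length.

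Most ribosomal protein genes lay slightly lower in rRPE and in t-rRPE than in intact RPE, while 4 genes on chromosome Z, *RPS6* among them, lay higher in rRPE, and *RPL22L1* lay higher where its paralog *RPL22* lay lower. None of these differences passed the test. No ribosomal protein gene met the threshold of the study, an adjusted p of at most 0.05 and a log2 fold change of at least 1 in either direction, in any of the 3 comparisons. That was 0 of 71 by limma in t-rRPE against RPE, where 0.671% of the 16535 genes tested were called, 0 of 71 in rRPE against RPE, where 1.03% were called, and 0 of 71 in rRPE against t-rRPE, where 0.0544% were called. The count was also 0 with the quasi-likelihood test of edgeR and with DESeq2 on recovered reads. Without the fold threshold limma again gave 0 members in each comparison, against 0.702%, 1.11% and 0.0544% of all genes. With DESeq2 5 members had an adjusted p of at most 0.05 in rRPE against RPE, *RPS6*, *RPS23*, *RPL17*, *RPL12* and *RPL21*, as had 5.33% of all genes to which it gave an adjusted p. At an unadjusted p of at most 0.05 limma gave 9 members in t-rRPE against RPE (12.4% of all genes), 18 in rRPE against RPE (12% of all genes) and 0 in rRPE against t-rRPE (9.31% of all genes). The 9 were 4 higher and 5 lower in t-rRPE, beside 5.97% and 6.45% of all genes, and the 18 were 4 higher and 14 lower in rRPE, beside 6.97% and 5.03%. In rRPE against t-rRPE 5.35% of all genes were higher and 3.96% lower at this level. The 9 became 5 without t-rRPE 3 (11.3% of all genes) or without RPE 1 (10.4%), and 4 without RPE 2 (9.63%) or RPE 3 (9.43%). The 0 became 6 without t-rRPE 3 (10% of all genes) and 2 without t-rRPE 2 (10.7%). In limma without the trend the 9 became 0 (10.7% of all genes) and the 18 became 3 (10.6%). With *HINTW* reads as a term they became 3 (13%) and 2 (10.9%). With quantile normalization or total count scaling the 18 became 11 (11.9% of all genes in each).

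The differences were small and mostly of one sign. In rRPE against RPE 6 members had a positive and 65 a negative log2 fold change, and in t-rRPE against RPE 12 had a positive and 59 a negative one, whereas 48.5% of all genes tested were negative in each, and 51.5% and 49.8% were positive. In rRPE against t-rRPE 23 were positive and 48 negative, beside 51.5% and 48.5% of all genes. The median log2 fold change of the members was −0.16 in rRPE against RPE, −0.11 in t-rRPE against RPE and −0.05 in rRPE against t-rRPE, beside 0.00 over all genes tested. The first 2 comparisons share the RPE libraries. For 67 of the 71 members the 95% interval lay within a 2-fold change in either direction in rRPE against RPE, as it did for 70 in t-rRPE against RPE and 70 in rRPE against t-rRPE. The 4 exceptions in rRPE against RPE were *RPL3L*, which had almost no reads, and *RPS6*, *RPS23* and *RPL17*. The median standard error of a log2 fold change was 0.12 over the members and 0.61 over all genes, and it was 0.11 over the elongation and termination factors and 0.15 over the initiation factors.

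**Figure D1:**
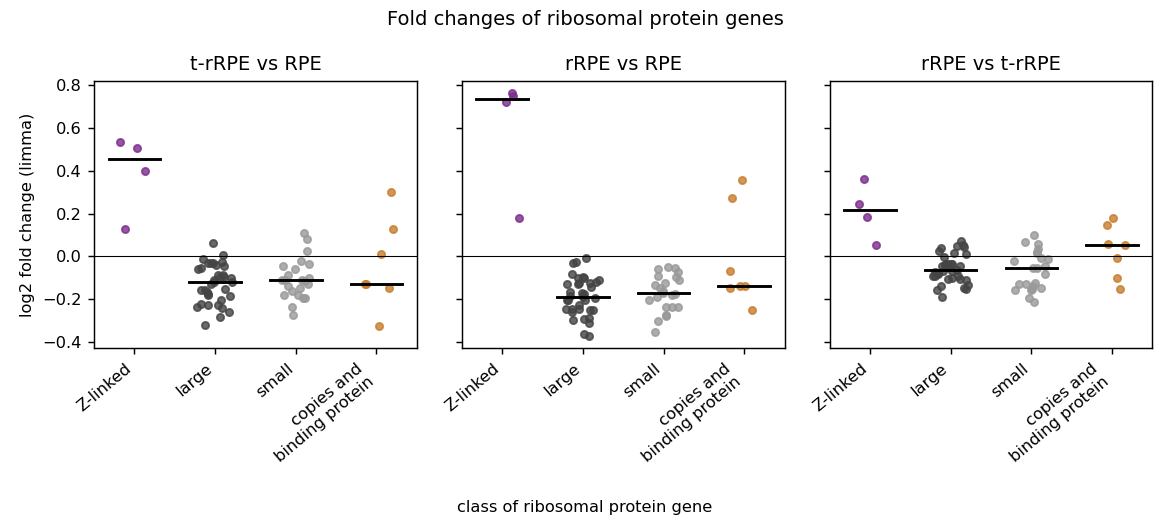
Log2 fold change by limma (y axis) of each ribosomal protein gene in t-rRPE against RPE, rRPE against RPE and rRPE against t-rRPE, by class (x axis), with the Z-linked members drawn apart from the large and small subunit classes. Points are genes and bars are class medians. *RPL3L* is left out of the plot. The Z-linked genes lie above 0 in each comparison, and the large and small subunit genes lie mostly below 0 in both comparisons with RPE.

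Libraries of a condition often lay wholly below those of RPE. In rRPE against RPE every library of rRPE was below every library of RPE for 32 members and above for 5, where 8.94% and 9.71% of all genes tested were so placed. In t-rRPE against RPE the counts were 22 below and 1 above, against 7.83% and 7.32% of all genes. In rRPE against t-rRPE they were 4 below and 0 above, against 5.68% and 6.84% of all genes. Without t-rRPE 3 the 4 became 29, without rRPE 1 it became 10, and without rRPE 2 it became 9. The 0 above became 5 without rRPE 3, 4 without t-rRPE 1, 3 without t-rRPE 2 and 1 without rRPE 2 or t-rRPE 3, and the 1 above in t-rRPE against RPE became 6 without RPE 1, 4 without t-rRPE 1 and 2 without t-rRPE 3. Full separation is easier to reach for any gene once a library is left out. No share of all genes is given for these leave-one-out counts, so their rise is not a result about the members.

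**Figure D2:**
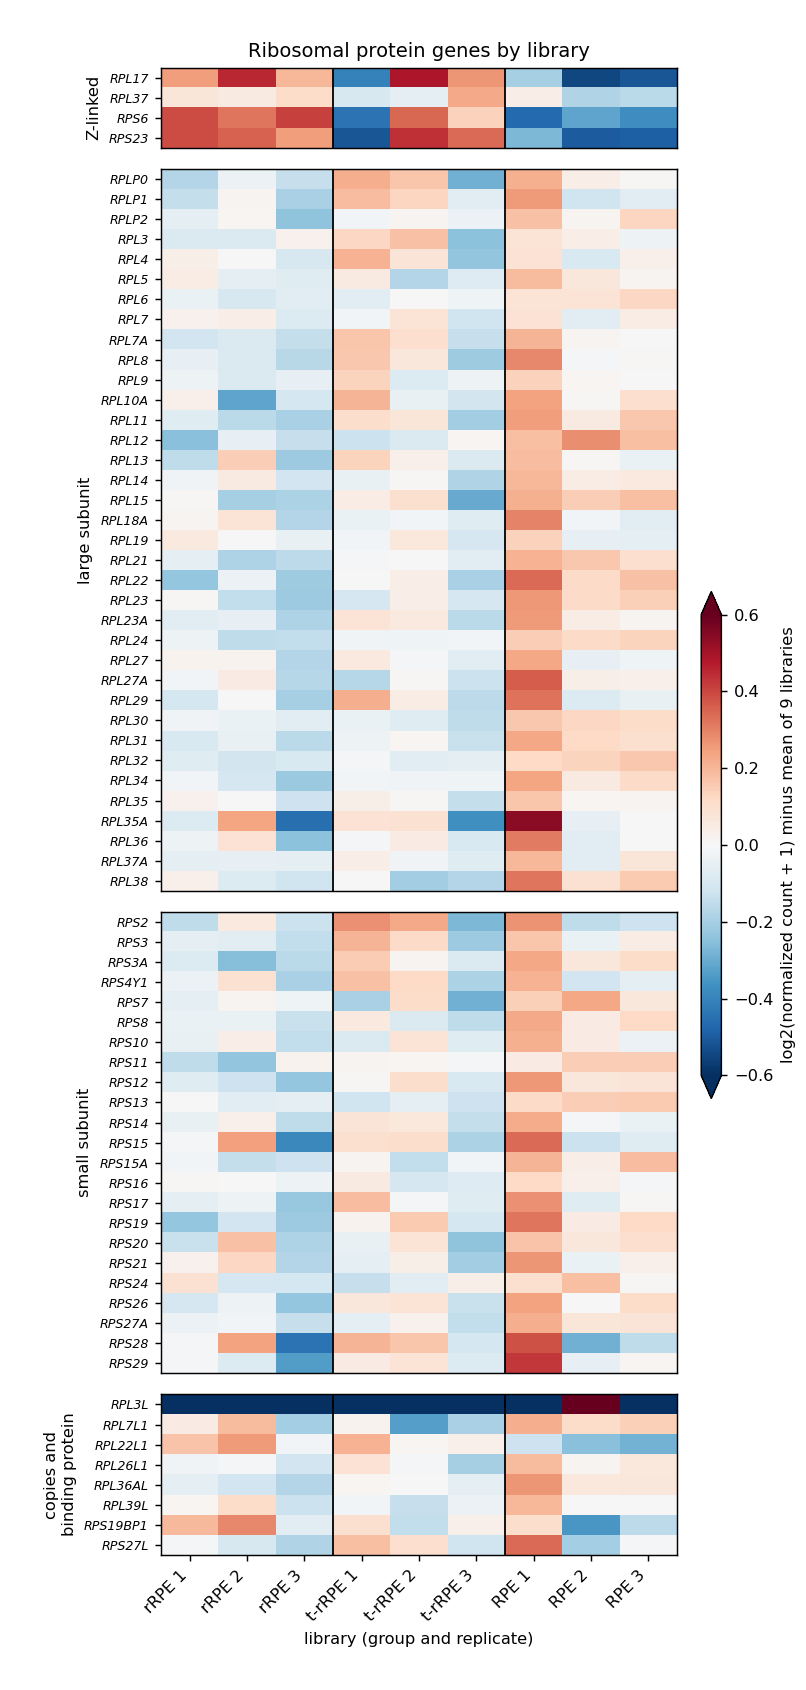
Log2(normalized count + 1) of each ribosomal protein gene (rows) in each library (columns, by condition), minus the mean of that gene over the 9 libraries, as a color scale. *RPS6*, *RPS23* and *RPL17* at the top are below their means in t-rRPE 1 and above them in t-rRPE 2, and most other rows are highest in RPE 1.

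Of the 38 large subunit genes, 36 were negative in rRPE against RPE, with a median log2 fold change of −0.18, and 34 in t-rRPE against RPE, with a median of −0.11. *RPL12*, whose product lies at the base of the stalk that recruits translation factors, had 17265, 19866 and 18696 normalized counts in rRPE, 18825, 19366 and 20707 in t-rRPE and 23324, 24973 and 23272 in RPE. All RPE libraries were above all others. The log2 fold change was −0.36 ± 0.11 (SE) in rRPE against RPE (limma adjusted p = 0.177) and −0.28 ± 0.11 in t-rRPE against RPE (limma adjusted p = 0.336). *RPL21*, another large subunit gene, had 34641, 31656 and 32258 normalized counts in rRPE, 35797, 35962 and 34272 in t-rRPE and 41574, 40205 and 38537 in RPE. Its rRPE libraries were all below its RPE libraries, and the log2 fold change was −0.29 ± 0.10 (limma adjusted p = 0.229). *RPL38*, needed in the mouse for the translation of a subset of Hox mRNAs, had 12346, 11441 and 11125 normalized counts in rRPE, 12065, 10457 and 10698 in t-rRPE and 15113, 12880 and 13500 in RPE. All libraries of both injured conditions were below those of RPE, and the log2 fold change for t-rRPE against RPE was −0.32 ± 0.13 (limma adjusted p = 0.34). *RPL30*, whose protein in yeast binds its own transcript, had 30456, 30090 and 29585 normalized counts in rRPE, 30057, 29427 and 27817 in t-rRPE and 34614, 33714 and 33352 in RPE, again with no overlap between RPE and either other condition.

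*RPLP0*, the anchor of the stalk, had 75393, 83222 and 77404 normalized counts in rRPE, 99122, 95830 and 69812 in t-rRPE and 98808, 87616 and 85666 in RPE. *RPLP1*, which pairs with *RPLP2* on that anchor, had 62264, 69557 and 60159 in rRPE, 78169, 75162 and 65884 in t-rRPE and 82093, 63322 and 65542 in RPE. The rRPE libraries of *RPLP0* were all below RPE, those of *RPLP1* overlapped with it, and t-rRPE 3 was the lowest t-rRPE library for both genes. *RPLP1* had the lowest p among large subunit members in rRPE against t-rRPE, with a log2 fold change of −0.19 ± 0.12 (limma adjusted p = 0.699). *RPL5* and *RPL11*, which carry a small ribosomal RNA into the large subunit and, when free, bind the p53 regulator MDM2, had log2 fold changes of −0.12 ± 0.11 and −0.30 ± 0.13 in rRPE against RPE. *RPL11* had 15093, 14174 and 13842 normalized counts in rRPE, 17073, 16681 and 13708 in t-rRPE and 18863, 16455 and 17719 in RPE, below RPE in every rRPE library (limma adjusted p = 0.377). *RPL3*, at the peptidyl transferase center, was close between conditions, with a log2 fold change of −0.08 ± 0.12 in rRPE against RPE (95% interval −0.34 to 0.18). *RPL8* and *RPL4*, also of the large subunit core, had −0.20 ± 0.12 and −0.03 ± 0.12 in the same comparison, and *RPLP2*, below RPE in every rRPE and t-rRPE library, had −0.20 ± 0.11. In rRPE against t-rRPE *RPL7A*, of the large subunit, had −0.16 ± 0.11 (limma adjusted p = 0.737).

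Of the 25 small subunit genes, 23 were negative in rRPE against RPE (median log2 fold change −0.16) and 20 in t-rRPE against RPE (median −0.11), the positive ones in rRPE being *RPS6* and *RPS23*. *RPS3A*, which binds the initiation machinery on the small subunit, had 52216, 46260 and 49366 normalized counts in rRPE, 61384, 55848 and 51899 in t-rRPE and 64916, 57800 and 59659 in RPE. The rRPE libraries were all below the RPE libraries, with a log2 fold change of −0.30 ± 0.11 (limma adjusted p = 0.246). *RPS19*, needed for maturation of the small subunit and mutated in human Diamond-Blackfan anemia, had 10831, 11743 and 10948 normalized counts in rRPE, 12929, 14173 and 11848 in t-rRPE and 15906, 13173 and 13842 in RPE. Its rRPE libraries lay below those of both other conditions, with log2 fold changes of −0.35 ± 0.13 against RPE (limma adjusted p = 0.274) and −0.21 ± 0.13 against t-rRPE (limma adjusted p = 0.661). *RPS13* had 19858, 19026 and 19146 normalized counts in rRPE, 18298, 19163 and 18260 in t-rRPE and 21500, 22026 and 22148 in RPE. This gene, an early-assembling protein of the small subunit, did not overlap between RPE and either other condition, and its log2 fold change was −0.24 ± 0.10 in t-rRPE against RPE (limma adjusted p = 0.385). *RPS3* and *RPS14*, of the head and the platform of the small subunit, had log2 fold changes of −0.15 ± 0.12 and −0.11 ± 0.12 in rRPE against RPE. *RPS27A*, made as a fusion with ubiquitin, had −0.19 ± 0.10, *RPS2* near the mRNA entry had −0.07 ± 0.16, and *RPS26* and *RPS28* near the mRNA exit had −0.24 ± 0.14 and −0.05 ± 0.21.

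Of the 6 members positive in rRPE against RPE, 4 were on chromosome Z, whereas 8 of the 12 positive in t-rRPE against RPE and 19 of the 23 positive in rRPE against t-rRPE were autosomal. The Z-linked members, *RPS6*, *RPS23*, *RPL17* and *RPL37*, as placed by the RefSeq annotation of the chicken, were higher in every rRPE library than in any RPE library, with a median log2 fold change of 0.73 in rRPE against RPE, 0.45 in t-rRPE against RPE and 0.22 in rRPE against t-rRPE. Among the 65 autosomal members the medians were −0.17, −0.11 and −0.05, and 2 of 65 were positive in rRPE against RPE, *RPL22L1* and *RPS19BP1*. In birds females carry a Z and a W chromosome and males a pair of Z chromosomes, and Z-linked genes are only in part compensated for dosage. Of the 503 Z-linked genes tested, 195 lay above RPE in every rRPE library, beside 981 of the 10330 autosomal genes. Full separation was thus not particular to the 4 Z-linked members. The RefSeq annotation gave no chromosome for *RPS19* and *RPL36AL*.

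*RPS6*, the small subunit protein phosphorylated by S6 kinases on growth signals, had 59483, 56612 and 60181 normalized counts in rRPE, 33337, 57616 and 49868 in t-rRPE and 32768, 36353 and 34970 in RPE. The rRPE libraries were all high, the RPE libraries were all low, and t-rRPE 1 was low while t-rRPE 2 and 3 were high. The log2 fold change was 0.76 ± 0.17 in rRPE against RPE (limma adjusted p = 0.0639, the lowest of any member in the 3 comparisons), 0.40 ± 0.17 in t-rRPE against RPE (limma adjusted p = 0.382) and 0.36 ± 0.17 in rRPE against t-rRPE (limma adjusted p = 0.551). *RPS23*, a protein of the decoding center, had 32304, 31539 and 29311 in rRPE, 17260, 33387 and 31166 in t-rRPE and 20478, 17456 and 17564 in RPE. Here too t-rRPE 1 stood with RPE and the other t-rRPE libraries with rRPE, and the log2 fold change in rRPE against RPE was 0.75 ± 0.21 (limma adjusted p = 0.136). *RPL17*, of the large subunit near the exit tunnel, had 41908, 48184 and 40397 in rRPE, 26563, 49316 and 42308 in t-rRPE and 30693, 24128 and 24666 in RPE, with the same placing of t-rRPE 1 and a log2 fold change of 0.72 ± 0.20 in rRPE against RPE (limma adjusted p = 0.134). *RPL37*, a zinc-binding protein of the large subunit, differed least, with 33879, 33479 and 34758 in rRPE, 30177, 30981 and 37726 in t-rRPE and 33098, 28454 and 28794 in RPE, and a log2 fold change of 0.18 ± 0.12 in rRPE against RPE (limma adjusted p = 0.633).

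**Figure D3:**
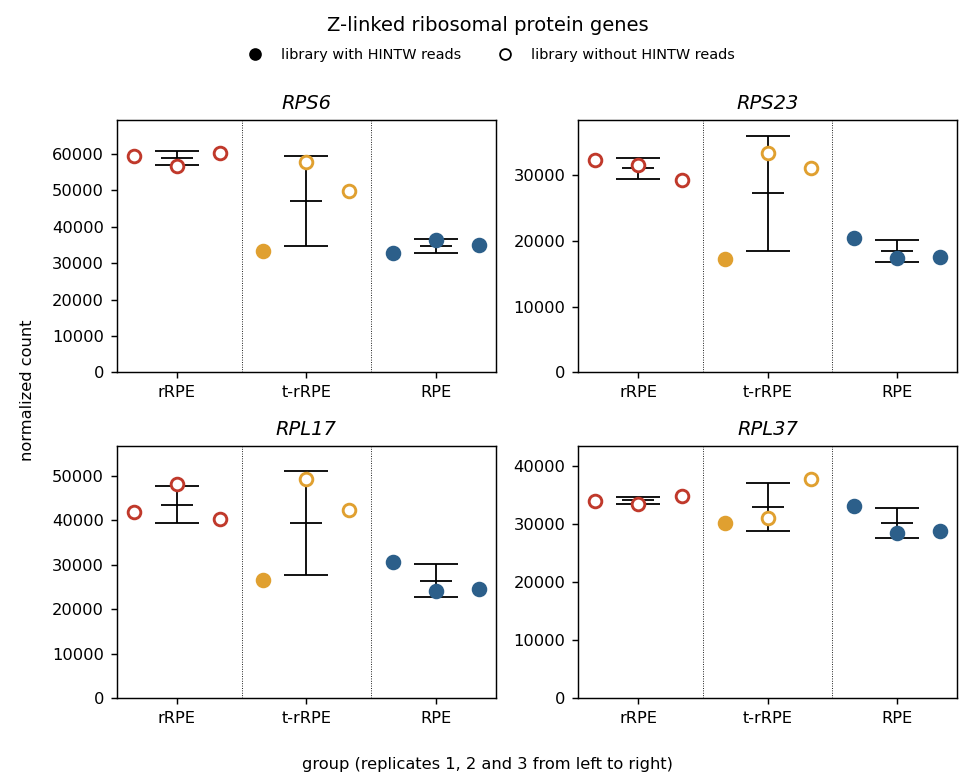
Normalized counts (y axis) of the 4 Z-linked ribosomal protein genes in rRPE, t-rRPE and RPE (x axis). Each point is a library, filled where the library held reads of the W-linked gene *HINTW*, and bars give the mean and SD of 3 libraries. For *RPS6*, *RPS23* and *RPL17* every filled point lies below every open point.

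Reads of W-linked genes followed the same line through the libraries. *HINTW*, a multicopy gene of the W chromosome, had 0, 0 and 0 normalized counts in rRPE, 147356, 0 and 0 in t-rRPE and 128872, 102583 and 106839 in RPE. *SPIN1W*, also W-linked, had at most 15.4 in rRPE and in t-rRPE 2 and 3, against 1930.4 in t-rRPE 1 and 1220.3 to 1429.0 in RPE. The 4 libraries with *HINTW* reads were thus the 3 of RPE and t-rRPE 1, and the 5 without were the 3 of rRPE with t-rRPE 2 and 3. Between rRPE and RPE the condition and the presence of W-linked reads cannot be told apart. The 503 Z-linked genes tested had median log2 fold changes of 0.66 in rRPE against RPE, 0.39 in t-rRPE against RPE and 0.28 in rRPE against t-rRPE, and the 10330 autosomal genes had 0.00, −0.02 and 0.03.

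Among libraries alike in W-linked reads the Z-linked members differed little between conditions, taken as means over the libraries of each. In t-rRPE 1 over RPE, all with *HINTW* reads, the log2 fold change was −0.06 for *RPS6*, −0.10 for *RPS23*, 0.01 for *RPL17* and 0.01 for *RPL37*, from 1 library against 3 and with no test. In rRPE over t-rRPE 2 and 3, none with *HINTW* reads, it was 0.13 for *RPS6*, −0.06 for *RPS23*, −0.07 for *RPL17* and −0.01 for *RPL37*. Across the line, in t-rRPE 2 and 3 over RPE, it was 0.63 for *RPS6*, 0.81 for *RPS23*, 0.79 for *RPL17* and 0.19 for *RPL37*. Single libraries of *RPL37* did not divide by W-linked reads. It had 30981 in t-rRPE 2 and 37726 in t-rRPE 3, both without *HINTW* reads, and 33098 in RPE 1, which had them. With *HINTW* reads as a term in limma the log2 fold change in rRPE against RPE was 0.08 ± 0.15 for *RPS6* (adjusted p = 0.887), −0.15 ± 0.17 for *RPS23* (adjusted p = 0.802), −0.06 ± 0.23 for *RPL17* (adjusted p = 0.945) and 0.00 ± 0.19 for *RPL37* (adjusted p = 1.0). In that fit the separation of condition from W-linked reads rests on t-rRPE 1. Its fold changes derive from the comparisons above within libraries alike in W-linked reads, so they are not a further check. This fit was chosen after the data had been seen.

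Without t-rRPE 1 the adjusted p in limma was 0.0144 for *RPS6* and 0.0178 for *RPS23* in rRPE against RPE, and 0.0303 for *RPS23* in t-rRPE against RPE. These libraries split by W-linked reads exactly as by injury.

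Of the copies, *RPL22L1* lay above RPE where *RPL22*, its partner among the large subunit genes, lay below. *RPL22* encodes an RNA-binding protein of the large subunit and *RPL22L1* its paralog, which in the mouse is raised when Rpl22 is lost. *RPL22L1* had 12601, 13339 and 11064 normalized counts in rRPE, 12923, 11275 and 11436 in t-rRPE and 10258, 9415 and 9198 in RPE, so that all libraries of both injured conditions were above RPE. It was the only autosomal member above RPE in every library, in rRPE and in t-rRPE. *RPL22* had 12560, 14407 and 12749 in rRPE, 14804, 15182 and 12900 in t-rRPE and 18686, 15999 and 16678 in RPE, and all libraries of both injured conditions were below RPE. That placing was common among the 71 members, with 32 below RPE in every rRPE library and 22 in every t-rRPE library, beside 8.94% and 7.83% of all genes. The log2 fold change of *RPL22L1* was 0.36 ± 0.13 in rRPE against RPE (limma adjusted p = 0.275) and 0.30 ± 0.13 in t-rRPE against RPE (limma adjusted p = 0.385). For *RPL22* it was −0.37 ± 0.13 in rRPE against RPE (limma adjusted p = 0.234) and −0.26 ± 0.13 in the t-rRPE comparison with RPE (limma adjusted p = 0.431). None of these passed the test.

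The ratio of the *RPL22L1* count to the *RPL22* count was 1.00, 0.926 and 0.868 in rRPE, 0.873, 0.743 and 0.887 in t-rRPE and 0.549, 0.589 and 0.552 in RPE. The lowest ratio after retinectomy was above the highest in intact RPE, and rRPE and t-rRPE overlapped. The separation from RPE follows from the placing of each gene given above and is not a further result. Both genes are autosomal. In t-rRPE 1, which had W-linked reads, the log2 fold change over RPE was 0.43 for *RPL22L1* and −0.21 for *RPL22*, from 1 library and with no test. Between rRPE and RPE the condition and W-linked reads cannot be told apart for these genes either. The ratio was formed after the data had been seen and was not tested.

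**Figure D4:**
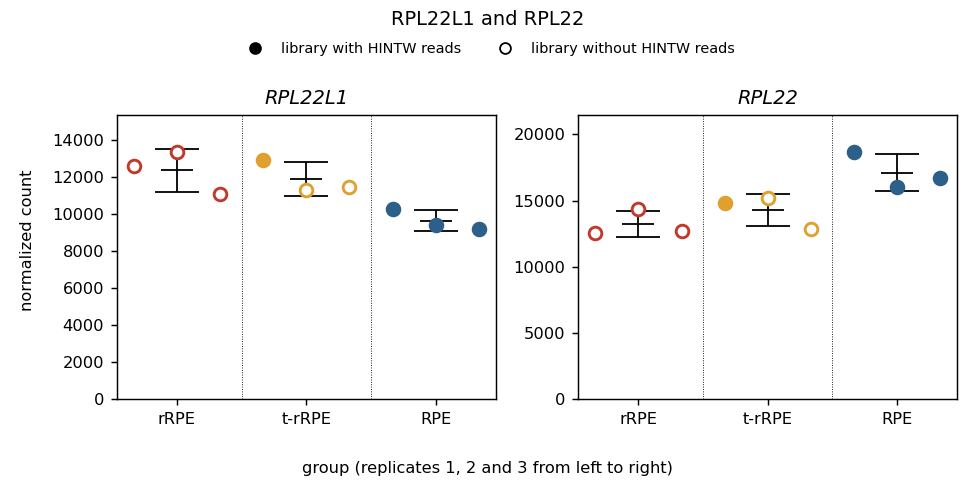
Normalized counts (y axis) of *RPL22L1* and *RPL22* in rRPE, t-rRPE and RPE (x axis). Each point is a library, filled where it held *HINTW* reads, and bars give the mean and SD of 3 libraries. The rRPE and t-rRPE libraries lie above RPE for *RPL22L1* and below RPE for *RPL22*.

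*RPL36AL*, a copy of *RPL36A*, had 23211, 22365 and 21400 normalized counts in rRPE, 24365, 24191 and 23314 in t-rRPE and 29038, 25271 and 25362 in RPE. All libraries of both injured conditions were below RPE, with log2 fold changes of −0.25 ± 0.11 in rRPE against RPE (limma adjusted p = 0.386) and −0.15 ± 0.11 in t-rRPE against RPE (limma adjusted p = 0.64). *RPL7L1*, a nucleolar relative of *RPL7* that takes part in ribosome assembly, had 11345, 12482 and 9512 normalized counts in rRPE, 11110, 8719 and 9582 in t-rRPE and 12737, 11837 and 12102 in RPE. The t-rRPE libraries were all below RPE and the rRPE libraries overlapped with it, with log2 fold changes of −0.32 ± 0.15 in t-rRPE against RPE (limma adjusted p = 0.396) and −0.15 ± 0.15 in rRPE against RPE (limma adjusted p = 0.752). *RPS27L*, a paralog of *RPS27* induced by p53 in mammals, had a log2 fold change of −0.14 ± 0.21 in rRPE against RPE and 0.01 ± 0.21 in t-rRPE against RPE. *RPS19BP1*, whose product binds *RPS19* and the deacetylase SIRT1, had 1854, 1981 and 1548 normalized counts in rRPE, 1734, 1461 and 1657 in t-rRPE and 1740, 1272 and 1453 in RPE, with overlap throughout. *RPL26L1* and *RPL39L*, under which RefSeq lists *RPL26* and *RPL39*, had log2 fold changes of −0.14 ± 0.11 and −0.07 ± 0.11 in rRPE against RPE. They were classed as copies by symbol, so the counts and medians of the large subunit leave them out. *RPS4Y1*, under which RefSeq lists *RPS4X*, was classed with the small subunit. *RPL3L*, the paralog of *RPL3* found in skeletal and heart muscle of mammals, had 65 reads in RPE 2 and 0 in every other library. Reads that match both a gene and a near-identical copy could have been split between them in the counting, so the values of the copies are uncertain to that extent.

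The shift of the autosomal members differed between libraries of a condition. Measured as the median deviation of the 65 genes from their means over the 9 libraries on the log2 scale, it was −0.04, −0.04 and −0.15 in rRPE 1, 2 and 3, then 0.04, 0.02 and −0.12 in t-rRPE 1, 2 and 3, and 0.21, 0.03 and 0.03 in RPE 1, 2 and 3. RPE 1 was the highest library and rRPE 3 and t-rRPE 3 the lowest, while t-rRPE 1 lay above RPE 2 and 3. Without RPE 1 the median log2 fold change of all members was −0.09 in rRPE against RPE and −0.05 in t-rRPE against RPE. Without t-rRPE 3 it was −0.07 in t-rRPE against RPE. In rRPE against t-rRPE the median was −0.01 without rRPE 3, −0.03 without t-rRPE 1, −0.02 without t-rRPE 2 and −0.09 without t-rRPE 3. With *HINTW* reads as a term it was −0.06 in rRPE against RPE, −0.07 in t-rRPE against RPE and −0.02 in rRPE against t-rRPE. In that fit the values against RPE rest on t-rRPE 1, the highest library of its condition here. They do not show how much of the shift goes with W-linked reads.

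**Figure D5:**
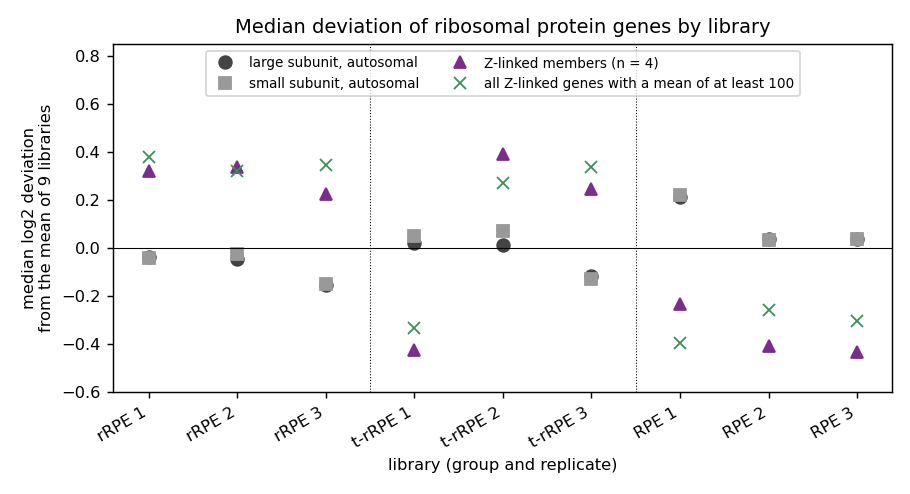
Median log2 deviation from the mean of the 9 libraries (y axis) in each library (x axis, by condition) for the autosomal large and small subunit genes, the 4 Z-linked members and 413 Z-linked genes with a mean normalized count of at least 100. The 413 include the 4 members. Both subunits are highest in RPE 1, and the median of the Z-linked members lies on the same side of 0 as that of the 413 genes in every library.

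Markers of other tissues also differed between these libraries. Lens genes (17 of 19 found) summed to 23237 to 52424 normalized counts in rRPE, 49595 to 411631 in t-rRPE and 1233 to 2002 in RPE, where *BFSP1* and *CRYBA4* were among the genes at 0. Endothelial genes (11 of 12) summed to 5557 to 5967 in rRPE, 4277 to 6035 in t-rRPE and 7367 to 14214 in RPE, and RPE 1 had the lowest sum of the RPE libraries. Genes of red blood cells (8 of 14) summed to 210998 to 535354 in rRPE, 146203 to 390186 in t-rRPE and 277128 to 427259 in RPE, RPE 1 again being the lowest of its condition. Mesenchyme genes (12 of 12) summed to 12032 to 14398 in rRPE, 9705 to 12106 in t-rRPE and 12559 to 17868 in RPE, with *PDGFRB* at 0 in rRPE and RPE and *PDGFRA* at 0 in rRPE. Neural retina genes (11 of 12) summed to 13491 to 19714 in rRPE, 9114 to 11534 in t-rRPE and 10292 to 15141 in RPE, with *GAP43* and *ISL1* at 0 in t-rRPE and *STMN2* at 0 in RPE. The 14 genes of RPE identity were all found, none was at 0 throughout a condition, and they summed to 277608 to 441969 in rRPE, 379378 to 491858 in t-rRPE and 368048 to 426341 in RPE. RPE 1 had the highest neural retina sum and the lowest mesenchyme and RPE identity sums of its condition. In rRPE against RPE 11 of the 14 RPE identity genes were negative and 3 positive (median log2 fold change −0.45, range −2.1 to 5.5). Of the 14, 1 was called there and 0 in t-rRPE against RPE, beside 1.03% and 0.671% of all genes. The direction of that gene is not given here. In the same order 5 and 7 lens genes, 1 and 1 endothelial genes and 1 and 0 neural retina genes were called. No mesenchyme or red blood cell gene was called in either comparison. Mesenchyme genes had medians of −1.46 in rRPE against RPE (9 of 12 negative) and −2.3 in t-rRPE against RPE (10 of 12). In the same order endothelial genes had −1.47 (7 of 11) and −2.09 (10 of 11), and genes of red blood cells −0.21 (7 of 8) and −0.77 (8 of 8). Neural retina genes had 0.13 (5 of 11) and −0.52 (8 of 11), and lens genes 4.52 (2 of 17) and 4.63 (1 of 17). The part of these tissues in the shift was not tested, and in bulk RNA fewer cells of a type and less RNA per cell cannot be told apart.

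The median coefficient of variation over 3 libraries was 5.90% in rRPE, 7.92% in t-rRPE and 7.82% in RPE for the members, and 33.4%, 41.4% and 33.2% for all genes tested that had counts in the condition. *RPL32*, *RPL6* and *RPL24* of the large subunit varied least, by 1.53%, 2.04% and 2.08% as the mean over the conditions. *RPL32* had 48286, 47156 and 47706 normalized counts in rRPE, 50347, 48514 and 48934 in t-rRPE and 55185, 55714 and 56775 in RPE, so that the 3 conditions did not overlap, and the log2 fold change was −0.23 ± 0.09 in rRPE against RPE (limma adjusted p = 0.323). *RPL35A* and *RPS28* varied most among the well-counted members, by 21.6% and 20.1%, with the highest counts in RPE 1. *RPL35A* had 13017, 16200 and 10053 normalized counts in rRPE, 14599, 14660 and 10658 in t-rRPE and 20030, 13278 and 13720 in RPE, with full overlap between conditions. *RPL17* and *RPS23* followed among the most variable, each through t-rRPE, where t-rRPE 1 was low.

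The remaining translation machinery likewise held no called gene by limma. The 70 mitochondrial ribosomal proteins had median log2 fold changes of −0.12 in rRPE against RPE, −0.05 in t-rRPE against RPE and −0.05 in rRPE against t-rRPE, with 8, 6 and 1 genes at an unadjusted p of at most 0.05, beside 12%, 12.4% and 9.31% of all genes. For 33 of 37 initiation factors tested the medians were 0.01, −0.05 and 0.03, and for 7 of 10 elongation and termination factors −0.10, 0.01 and −0.13. *FAU*, a ribosomal protein made as a fusion with a ubiquitin-like protein, and *GNB2L1*, the scaffold RACK1 of the small subunit, had log2 fold changes of −0.08 ± 0.18 and −0.20 ± 0.11 in rRPE against RPE. *RPSAP58*, the RefSeq entry for *RPSA*, had 126842, 124550 and 131732 normalized counts in rRPE, 173951, 182149 and 121622 in t-rRPE and 174465, 145950 and 146488 in RPE, and its rRPE libraries were all below RPE (log2 fold change −0.28 ± 0.15, limma adjusted p = 0.492).

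Ribosome biogenesis genes, which make and process ribosomal RNA and assemble the subunits, were mostly negative in t-rRPE against RPE and mostly positive in rRPE against t-rRPE, comparisons that share the t-rRPE libraries. Of 41 genes tested from a list of 50, 7 were positive and 34 negative in t-rRPE against RPE (median log2 fold change −0.26), 18 were positive and 23 negative in rRPE against RPE (median −0.08), and 34 were positive and 7 negative in rRPE against t-rRPE (median 0.23). None was called, and 6, 3 and 7 had an unadjusted p of at most 0.05, beside 12.4%, 12% and 9.31% of all genes. *NCL*, the major nucleolar protein nucleolin, had 37750, 33904 and 39186 normalized counts in rRPE, 38117, 38569 and 39023 in t-rRPE and 45748, 51721 and 49919 in RPE. It lay below RPE in every library of both injured conditions, with log2 fold changes of −0.41 ± 0.10 in rRPE against RPE (limma adjusted p = 0.0917) and −0.35 ± 0.10 in t-rRPE against RPE (limma adjusted p = 0.201). *NPM1*, the nucleolar chaperone nucleophosmin, had 53660, 51186 and 49473 in rRPE, 49662, 51527 and 43867 in t-rRPE and 60179, 57828 and 55960 in RPE, likewise with no overlap with RPE. Of the 41 genes, 3 lay below RPE in every rRPE library and 11 in every t-rRPE library, beside 8.94% and 7.83% of all genes. Above RPE in every library were 1 in rRPE and 0 in t-rRPE, beside 9.71% and 7.32% of all genes. Between rRPE and t-rRPE *NCL* and *NPM1* overlapped, with log2 fold changes of −0.06 ± 0.10 and 0.09 ± 0.10. *NOP56*, also listed, was higher in every rRPE library than in t-rRPE (0.35 ± 0.19, limma adjusted p = 0.608). Its rRPE libraries overlapped with RPE. *NCL*, *NPM1* and *NOP56* were picked from the list with their values known.

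Upstream regulators were uneven. *MYC*, a transcription factor that drives ribosome production, had 1058, 1218 and 1506 normalized counts in rRPE, 896, 541 and 407 in t-rRPE and 532, 538 and 548 in RPE. All rRPE libraries were above all others, with log2 fold changes of 1.21 ± 0.34 against RPE (limma adjusted p = 0.144) and 1.10 ± 0.34 against t-rRPE (limma adjusted p = 0.347), neither of which passed the test. *RPS6KB1*, an S6 kinase, had 1380, 1466 and 1195 in rRPE, 1762, 1526 and 1285 in t-rRPE and 886, 1262 and 898 in RPE. The t-rRPE libraries were above RPE and the rRPE libraries overlapped with it, and the log2 fold change was 0.59 ± 0.25 in t-rRPE against RPE (limma adjusted p = 0.383). *EIF4EBP1*, the repressor of cap-dependent translation that mTOR phosphorylates, had a log2 fold change of −0.13 ± 0.18 in rRPE against RPE. Of 30 genes of translation control tested and of 10 for RNA polymerase I, none was called by limma in any comparison.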

How the data were processed

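RNA of laser-captured RPE was sequenced from 9 embryos, 3 each of rRPE, t-rRPE and RPE. The authors trimmed reads with Trim Galore 0.6.1 and cutadapt 1.18, aligned them to GRCg6a with STAR 2.7.3, counted them without strand with StringTie 2.0.4 and divided them by DESeq2 1.22.2 size factors. The signal the authors deposited, for 16635 genes, is thus a normalized count, whose values all came out as whole reads (share 1, tolerance 0.001) after division by the smallest step of their library. Recovered reads ranged from 26167206 to 45563924 per library, and PCR copies could not be separated from molecules.

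Genes whose normalized counts summed to 20 or more (16535) were fitted as log2(normalized count + 1) in R 4.3.3 with limma 3.58.1, in 1 group-means model of the 9 libraries with a trend, with Benjamini-Hochberg adjustment over all genes tested. The script was tested on simulated data. Fold changes are on this log2 scale, and ± is the standard error. P-values rest on the spread between the 3 embryos of each condition, pooled over the 9 libraries and drawn toward the trend. A p for rRPE against RPE thus also carries the spread within t-rRPE. Alternatives were other pseudocounts, filters and scalings, edgeR 4.0.16 and DESeq2 1.42.0 on recovered reads, limma without the trend, with a replicate block or on only the 6 libraries compared, each library left out, and *HINTW* reads as a term. Tables were handled in Python 3.11.15 with pandas 2.3.3 and drawn with matplotlib 3.10.9.

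The members and lists were chosen with earlier results of these data known. The named members were those called, the 4 of lowest p in each direction per comparison, the 5 with the highest and lowest counts, and a fixed set of known roles, while others such as *RPL32*, *RPL24* and *RPL35A* were named after their values were seen. Chromosomes came from the RefSeq annotation by symbol, which matched 10873 genes and 69 of 71 members. It is of another build, so no coordinates are given.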

Additional observations from a re-analysis of the deposited data

How the results depend on the processing

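Of 25 named fold changes, 19 kept their direction under all 22 other settings and none was called under any. With *HINTW* reads as a term the log2 fold change turned to −0.062 for *RPL17* and −0.15 for *RPS23* in rRPE against RPE, to −0.096 for *RPS23* and −0.056 for *RPS6* in t-rRPE against RPE, and to −0.075 for *RPL17* and −0.056 for *RPS23* in rRPE against t-rRPE. Leaving out single libraries these last ranged from −0.075 (without t-rRPE 1) to 0.37 for *RPL17* and from −0.056 (without t-rRPE 1) to 0.42 for *RPS23*. Values with this term, and these without t-rRPE 1, derive from the same comparisons within libraries alike in W-linked reads. The number of members at an adjusted p of at most 0.05 with any fold was 1 with quantile normalization (1.17% of all genes), 2 with only the 6 libraries compared (1.63%) and 5 with DESeq2 (5.33%) in rRPE against RPE, where it was 0 by limma on all libraries (1.11%). Leaving out single libraries it ranged from 0 to 2 there and from 0 to 1 in t-rRPE against RPE. Both were highest without t-rRPE 1, where the shares of all genes were 1.26% and 0.714%. Members with every library above the other condition numbered 0 among structural proteins only in t-rRPE against RPE and 1 to 6 leaving out single libraries, 1 among autosomal members only in rRPE against RPE, and 1 with quantile normalization, 3 with total count scaling and 0 to 5 leaving out single libraries in rRPE against t-rRPE. Members with every library below numbered 1 with upper-quartile rescaling, 1 with total count scaling, 2 among autosomal members only and 5 to 29 leaving out single libraries in rRPE against t-rRPE. Full separation is easier to reach for any gene once a library is left out, and no share of all genes is given for these counts. The cause was not tested. The member medians stayed negative under every setting. Leaving out single libraries they ranged from −0.202 to −0.094 in rRPE against RPE, −0.154 to −0.049 in t-rRPE against RPE and −0.089 to −0.008 in rRPE against t-rRPE. With *HINTW* reads as a term they were −0.062, −0.074 and −0.025 in the same order. With the replicate block the medians were −0.164, −0.112 and −0.047 and no member was called. In rRPE against t-rRPE 1 member in place of 0 then had an unadjusted p of at most 0.05, beside 9.6% of all genes. Same-numbered libraries did not deviate together (correlations −0.0307 to 0.0605), so they were not treated as pairs.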
